A study of Homo sapiens with 26 samples.

Results

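The clade B serpins of squamous epithelium were 8 genes, SERPINB1, SERPINB2, SERPINB3, SERPINB4, SERPINB5, SERPINB7, SERPINB8 and SERPINB13, chosen by symbol out of 26485 gene symbols in each of 5 tables of normalised read counts. RNA-seq had been made from 3 human esophageal squamous cell carcinoma (ESCC) lines, KYSE180, TE6 and KYSE150, as 26 libraries in 11 groups. KYSE180 and TE6 express BRDT, a bromodomain protein of the BET family whose normal expression is confined to the testis, and both were transfected for 48 h with siRNA against BRDT (siBRDT), siRNA against TP63 (siTP63), the gene of the squamous lineage transcription factor p63, or control siRNA (siCont). KYSE150, which carries little BRDT mRNA, received siTP63 or siCont, or in a separate experiment was electroporated with a BRDT expression plasmid (BRDT-OE) or the control vector pCDNA5/TO. KYSE180 siBRDT and KYSE150 BRDT-OE had 3 libraries per group, each with its own 3 controls, and KYSE180 siTP63, KYSE150 siTP63 and the 3 TE6 groups had 2 libraries each. KYSE180 therefore had separate siCont libraries for each knockdown, whereas in TE6 both knockdowns shared the same 2 siCont libraries. Each group stands for a single cell line, and nothing in the sample descriptions says whether replicates were separate cultures, so the p-values measure the spread between these libraries only.

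Serpins are a superfamily of proteins, most of which trap a serine or cysteine protease by offering an exposed reactive centre loop that the protease cuts and then cannot leave. Clade B members lack a classical signal peptide and act mainly inside cells. Several are characteristic of stratified squamous epithelium, including the squamous cell carcinoma antigens SERPINB3 and SERPINB4 and the non-inhibitory SERPINB5 (maspin), which is known as a target of p53 family factors. In the annotation of build hg38 (GENCODE 44), 7 of the 8 members lay on chromosome 18 within a gene cluster at 18q21, from SERPINB5 (63476958 to 63505085) through SERPINB13 (63586989 to 63604639), SERPINB4 (63637259 to 63644256), SERPINB3 (63655197 to 63661893), SERPINB7 (63752935 to 63805376) and SERPINB2 (63871692 to 63903888) to SERPINB8 (63970029 to 64019779). SERPINB4 and SERPINB3 were on the minus strand and the other 5 on the plus strand. SERPINB1 lay apart, on chromosome 6 (2832332 to 2841959, minus strand).

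SERPINB3 and SERPINB4 are neighbouring paralogs, so the degree to which a read can tell them apart is shown first. Their canonical transcripts were both 1707 bases long and 95.66% identical. Of the 1658 windows of 50 bases in each transcript, 75.09% did not occur in the other, so most read positions could be assigned to 1 of the genes. Their coding sequences of 1170 bases differed at 56 positions, most densely between coding positions 952 and 1071, where 18 of 120 bases differed. The lines below give this stretch of each gene from the hg38 genome in coding direction, with the differing bases in capitals; SERPINB3 is at chr18:63655759-63655878 and SERPINB4 at chr18:63637821-63637940, both on the minus strand. The reactive centre loop is encoded near this end of the coding sequence, and SERPINB3 is known to inhibit cathepsins of the papain family, such as cathepsins S, K and L, whereas SERPINB4 inhibits cathepsin G and chymase.
SERPINB3: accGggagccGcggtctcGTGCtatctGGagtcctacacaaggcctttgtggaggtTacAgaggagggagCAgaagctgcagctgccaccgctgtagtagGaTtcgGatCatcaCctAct
SERPINB4: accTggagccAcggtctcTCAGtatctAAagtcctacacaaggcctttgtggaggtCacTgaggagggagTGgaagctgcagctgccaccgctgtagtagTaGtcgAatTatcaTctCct

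The promoters of the pair were more alike than the genes. In the 250 bases upstream of the transcription start (RefSeq, GRCh38.p14, minus strand; chr18:63661894-63662143 for SERPINB3 and chr18:63644257-63644506 for SERPINB4) the sequences differed at 3 positions, printed in capitals.
SERPINB3: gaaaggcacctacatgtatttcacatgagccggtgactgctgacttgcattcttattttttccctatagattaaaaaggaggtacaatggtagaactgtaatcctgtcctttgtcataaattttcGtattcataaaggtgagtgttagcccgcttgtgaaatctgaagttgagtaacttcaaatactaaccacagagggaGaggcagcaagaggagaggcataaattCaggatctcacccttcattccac
SERPINB4: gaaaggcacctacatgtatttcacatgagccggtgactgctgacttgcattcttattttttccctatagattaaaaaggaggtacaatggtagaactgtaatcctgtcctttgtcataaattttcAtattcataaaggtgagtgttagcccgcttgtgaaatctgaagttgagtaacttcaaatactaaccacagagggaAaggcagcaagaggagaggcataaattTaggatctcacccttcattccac
The SERPINB5 promoter (chr18:63476708-63476957, plus strand) is shown because SERPINB5 responded to TP63 knockdown in opposite directions in different lines; the capitals mark the palindromic hexamer ACATGT.
SERPINB5: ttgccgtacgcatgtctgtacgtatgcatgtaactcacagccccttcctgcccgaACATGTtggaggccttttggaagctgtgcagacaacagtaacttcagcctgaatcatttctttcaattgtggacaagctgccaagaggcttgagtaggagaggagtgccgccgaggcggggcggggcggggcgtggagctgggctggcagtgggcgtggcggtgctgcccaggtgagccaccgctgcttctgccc
Searched on both strands, ACATGT occurred in the 250-base promoters of SERPINB5, SERPINB4 and SERPINB3, the last 2 of which are nearly the same sequence, and in 3.6% of all 35116 promoters. The other motif searched, TGACTCA, a sequence bound by AP-1 factors, occurred in 4 of the 10 promoters listed for the members, those of SERPINB13 and SERPINB8 and both of SERPINB7, and in 4.2% of all promoters. These are counts of letters, not evidence that a factor bound there.

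Libraries held between 7582089 and 19372441 reads assigned to genes. All 7 squamous markers (KRT5, KRT6A, KRT14, KRT17, DSG3, DSC3 and TP63) had a mean normalised value of at least 10 in every group, and the leukocyte marker PTPRC had a group mean of at most 2.61. The other leukocyte markers CD3E and CSF1R were also low in KYSE180 and TE6, whereas CD68 was present in all 3 lines. The summed squamous markers moved with the knockdowns: in TE6 they ranged from 80770 to 83470 in siCont, from 47606 to 53308 in siBRDT and from 15524 to 16703 in siTP63, in KYSE180 from 129916 to 140871 in siCont against 55153 to 58464 in siTP63, and in KYSE150 from 16046 to 16118 against 7064 to 7736. They ranged from 88745 to 96955 in KYSE180 siCont against 50091 to 51883 in siBRDT, and from 13341 to 16027 in the KYSE150 vector controls against 17242 to 18312 in BRDT-OE. Of the 7, 6 and 5 were called lower after siBRDT in KYSE180 and TE6 (15.8% and 18.1% of all genes), and 7 after siTP63 in each (25.7% and 20.6%). TP63 is among the 7 and is the gene that siTP63 targets, so its fall there was set by the treatment. The sums and the median given for siTP63 also include it. In KYSE150 siTP63 0 of the 7 were called, where 0 of 12335 genes were. Their log2 fold changes there ranged from -3.31 to 0.42 (DSG3), with a median of -1.23. In BRDT-OE 3 were called higher and 1 lower, DSG3 (-1.08), against 10.5% and 16% of all genes. Of 4 markers of simple epithelium, KRT8 (0.64) and KRT18 (0.73) were called higher in TE6 siBRDT (15.6% of all genes). The sum of the 4 went there from between 33913 and 38141 to between 47129 and 48433. In KYSE180 siTP63 3 of the 4 were called lower (25.7% of all genes). The sum went there from between 86496 and 111482 to between 54358 and 68721. CD68 was called lower in both knockdowns of KYSE180 (-1.26 after siBRDT, -1.73 after siTP63) and TE6 (-0.80 and -2.26). Of 5 mesenchymal markers, COL3A1 was called higher in KYSE180 siBRDT (0.82, against 14.5% of all genes) and COL1A1 lower in BRDT-OE (-0.90, against 16%). The part of these shifts in the serpin results was not tested. The targeted genes followed the labels in direction. The log2 fold change of BRDT was -2.75 in KYSE180 siBRDT, -2.23 in TE6 siBRDT and 10.60 in KYSE150 BRDT-OE, and that of TP63 was -1.70, -4.45 and -2.34 in KYSE180, TE6 and KYSE150 siTP63. The last of these, from values of 695 and 729 to 114 and 170, did not pass the test (limma, adjusted p = 0.082). TP63 also fell after siBRDT, with log2 fold changes of -0.58 in KYSE180 and -1.15 in TE6, and stood at -0.11 in BRDT-OE (adjusted p = 0.33). After siTP63 the log2 fold change of BRDT was -0.05 in KYSE180, -0.09 in TE6 and -2.81 (SE 1.40) in KYSE150. None of these was called (limma, adjusted p = 0.78, 0.67 and 0.36).

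Between genes, levels were compared as normalised value per kilobase of canonical transcript, within each control group. SERPINB5 was the most abundant member in the control cells of KYSE180 (361 ± 21.1, SD, n = 3, in the siBRDT experiment; 325 ± 17.8, n = 2, in the siTP63 experiment) and TE6 (438 ± 45.6, n = 2). In KYSE150 SERPINB1, an inhibitor of neutrophil proteases, stood first, with 389 ± 67.2 (n = 2) in siCont and 653 ± 100.2 (n = 3) in the vector control, and SERPINB5 second with 207 ± 48.6 and 404 ± 11.5. The ranges of SERPINB1 and SERPINB5 did not overlap in any of the 5 control groups.

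Below these leading genes the order of the means was not the same in each line, nor in the separate control groups of KYSE180 or of KYSE150. SERPINB13 (headpin), an inhibitor of lysosomal cathepsins that is typical of upper squamous layers, ranked below SERPINB5 alone in TE6 at 250 ± 11.1 per kb and next after SERPINB1 in KYSE180 at 35.7 ± 5.18 and 14.6 ± 2.13. In KYSE150 SERPINB13 was at 11.5 ± 2.87 in siCont and 61.1 ± 8.67 in the vector control, where its range overlapped that of SERPINB8. SERPINB2 was at 1.85 ± 2.62 and 18.7 ± 4.48 in these KYSE150 groups. SERPINB3 reached 82.6 ± 0.469 in TE6, and at most 6.35 ± 3.77 in any control group of the other lines. SERPINB7, a gene of the epidermis whose loss causes a palmoplantar keratoderma, and SERPINB8, an inhibitor of furin, followed SERPINB5 in KYSE150 with 40.9 ± 15.8 and 43.9 ± 0.114 in siCont, ranges that overlapped, and 75.9 ± 0.896 and 64.8 ± 5.59 in the vector control, which did not. SERPINB8 was also measured in TE6 (15.7 ± 2.0), above SERPINB2 in that line (4.80 ± 0.392). SERPINB4 had the lowest mean in KYSE180, with a range that overlapped the next member, SERPINB2 or SERPINB7, in both control groups, and was listed at 0 in both siCont libraries of the siTP63 experiment (which with 3 reads as the limit of a count of 0 allows a normalised value of up to 4.72 and 3.08), and SERPINB7 the lowest in TE6, where it overlapped SERPINB4. The 5 tables were normalised separately, so levels were ordered within a group and were not tested between lines.

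**Figure D1:**
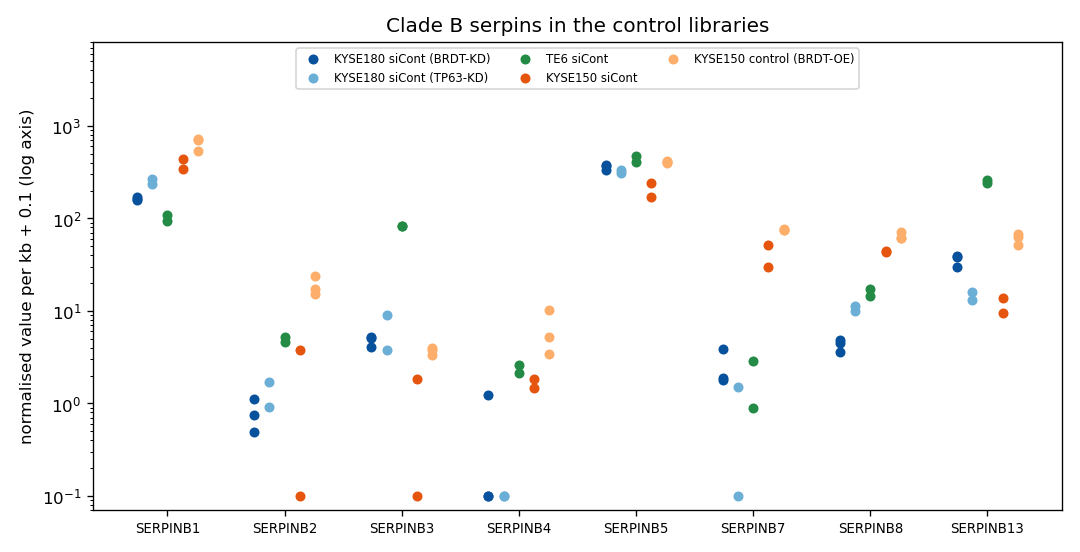
Normalised value per kilobase of canonical transcript, plus 0.1, on a log axis, for each member (horizontal axis) in every library of the 5 control groups (colours). Among the members, SERPINB5 is highest in KYSE180 and TE6 and SERPINB1 in KYSE150. The mean of SERPINB3 is 82.6 in TE6 and at most 6.35 in the other control groups. The largest plotted values of SERPINB7 and SERPINB8 are in KYSE150. The tables were normalised separately, so levels were not tested between lines. Points at 0.1 are values of 0.

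Treated and control libraries were compared with limma on log2(value + 1), over genes with a mean normalised value of at least 10, and calls required both an adjusted p below 0.05 (Benjamini-Hochberg, over all genes tested) and a log2 fold change of 0.5 or more, up or down. Fold changes of low genes are understated on this scale. The number of members that passed the filter on low values was 4 in KYSE180, 6 in TE6, 5 in KYSE150 siTP63 and 6 in KYSE150 BRDT-OE, and the others are described by their values.

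After BRDT knockdown SERPINB5 was called lower in TE6, and no other member tested was called in TE6 or KYSE180. In KYSE180 siBRDT 0 of 4 members were called, against 30.3% of all 13589 genes tested; without the fold limit the count was 1 (58.4% of all genes), at an unadjusted p under 0.05 it was also 1 (62.7%), and edgeR and DESeq2 also called 0 members. The median log2 fold change of the 4 was -0.11, against -0.01 over all genes. In TE6 siBRDT 1 of 6 was called, SERPINB5, against a background of 33.7%, with a median of -0.05 for the members and -0.04 for all genes. With so few members tested, these counts are not read as a difference from the background.

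SERPINB5 fell after BRDT knockdown in TE6 and was not called in KYSE180, and these effects differed. As in any bulk sample, fewer cells of a kind and less RNA per cell cannot be told apart here. In KYSE180 its normalised values were 969, 961 and 871 in siCont and 858, 856 and 873 in siBRDT, with overlapping groups and a log2 fold change of -0.11 (SE 0.07, adjusted p = 0.167). In TE6 they were 1049 and 1215 in siCont and 621 and 694 in siBRDT, both below both controls, a fall of 0.78 on the log2 scale (SE 0.12, adjusted p = 2.0e-04). The difference between the effects was 0.67 (SE 0.13, adjusted p = 6.6e-04), in a test that called 38.3% of all genes.

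SERPINB1 was called in neither line, but the effects differed; with SERPINB5 it made 2 of 5 members tested. KYSE180 values were 421, 388 and 401 in siCont and 366, 321 and 286 in siBRDT, all lower, with a log2 fold change of -0.32 (SE 0.10, adjusted p = 0.0096) that did not reach the fold limit. TE6 values were 234 and 268 in siCont and 289 and 299 in siBRDT, both higher, with a log2 fold change of 0.23 (SE 0.13, adjusted p = 0.175). KYSE180 minus TE6 was -0.55 (SE 0.16, adjusted p = 0.012), which passed the test and lost it without TE6 siCont replicate 1 (-0.45, adjusted p = 0.069) and when libraries were rescaled to equal totals (-0.36, adjusted p = 0.071). SERPINB13 was at 93.1, 122 and 121 in KYSE180 siCont and 115, 92.6 and 104 in siBRDT, and in TE6 at 757 and 806 against 725 and 532; neither change was called (adjusted p = 0.553 and 0.105), although the TE6 change was called without siBRDT replicate 1 (-0.55, adjusted p = 9.8e-05). SERPINB8 had log2 fold changes of -0.09 (SE 0.29) and -0.40 (SE 0.25), SERPINB3 of 0.33 (SE 0.19) in TE6 and SERPINB2, the plasminogen activator inhibitor PAI-2, of 0.44 (SE 0.44) in TE6, none of them called.

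**Figure D2:**
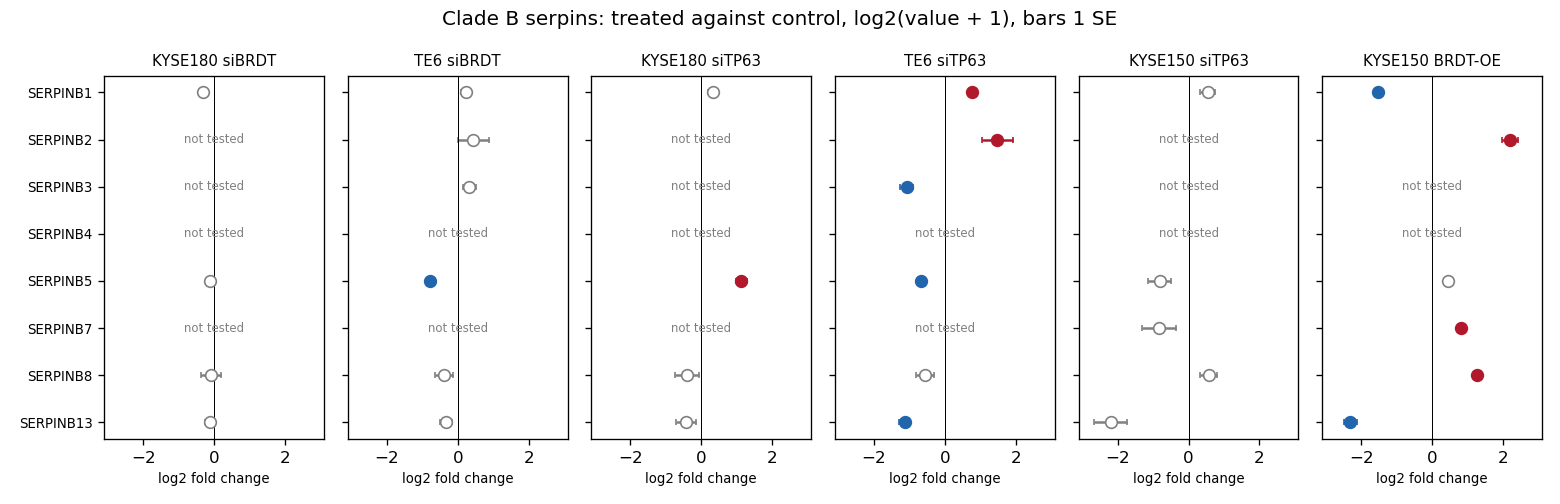
Log2 fold change (horizontal axis, on log2(value + 1)) of each member in the 6 comparisons, with bars of 1 SE; filled symbols were called (red higher, blue lower in treated cells) and open ones were not. SERPINB5 is called higher in KYSE180 siTP63 (1.13) and lower in TE6 siTP63 (-0.66), and 5 members are called in TE6 siTP63 and in KYSE150 BRDT-OE.

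TP63 knockdown was the perturbation under which SERPINB5 changed in opposite directions. In KYSE180 siTP63 it was the only member called among the 4 tested, where 49.3% of all 13924 genes were (2 members and 58.9% of all genes without the fold limit), and the median of the 4 was -0.03, against 0.00 over all genes. Its values rose from 873 and 808 in siCont to 1690 and 2008 in siTP63, with both treated libraries well above both controls, a log2 fold change of 1.13 (SE 0.14, adjusted p = 2.7e-07).

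In TE6 siTP63, with a background of 38.9%, 5 of 6 members were called, 3 lower and 2 higher (20.6% and 18.3% of all genes), and SERPINB5 was among those that fell; the median of the 6 was -0.61, against -0.01 over all genes. Its values were 1049 and 1215 in siCont and 723 and 701 in siTP63, both below both controls, with a log2 fold change of -0.66 (SE 0.12, adjusted p = 4.7e-04). KYSE180 minus TE6 was 1.80 (SE 0.18, adjusted p = 1.4e-06, where 51% of all genes differed), positive and past the threshold in each of the alternatives tried. In KYSE150 SERPINB5 was at 445 and 623 in siCont and at 386 and 233 in siTP63, also lower without overlap, with a log2 fold change of -0.81 (SE 0.32, adjusted p = 0.272). KYSE180 minus KYSE150 was 1.94 (SE 0.37, limma adjusted p = 0.0497, background 2.05%), a call lost in 11 of 14 alternatives. The difference itself lay between 1.58 and 2.36 over them. The call was lost on leaving out any single library other than KYSE150 siTP63 replicate 1. It was also lost with the replicate block, where 0 of 13689 genes differed, and with no filter on low values, where 36 of 21328 did. TE6 minus KYSE150 was 0.15 (SE 0.34, adjusted p = 0.818), and by limma 0 of 7 members differed between these lines (3 at an unadjusted p under 0.05, against 23.3% of all genes), against 3.43% of all genes. With the KYSE150 siTP63 replicate numbers crossed in a replicate block, an alternative chosen after seeing the data, 2 of 5 members differed between KYSE180 and KYSE150 (34.2% of all genes) and 3 of 7 between TE6 and KYSE150 (27.4%).

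SERPINB13 had lower values after siTP63 in every line, although with libraries rescaled to equal totals its log2 fold change in KYSE180 was 0.082. TE6 fell from 757 and 806 to 316 and 401, a log2 fold change of -1.13 (SE 0.16, adjusted p = 9.0e-05). KYSE150 went from 29.7 and 42.4 to 9.14 and 5.32, the largest change of a member in that experiment at -2.19 (SE 0.47), with an adjusted p of 0.129. KYSE180 went from 40.9 and 50.3 to 29.9 and 37.3, groups that did not overlap but differed by less than the test requires (-0.43, SE 0.29, adjusted p = 0.204). KYSE180 minus TE6 was 0.70 (SE 0.27, adjusted p = 0.041), a call lost in 8 of 15 alternatives, including those without KYSE180 siCont replicate 1, KYSE180 siTP63 replicate 2, either TE6 siCont library or TE6 siTP63 replicate 1 (adjusted p from 0.079 to 0.182).

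SERPINB1 had higher values after siTP63 in every line. TE6 rose from 234 and 268 to 443 and 414, by 0.77 (SE 0.13, adjusted p = 4.1e-04). KYSE180 values were 585 and 658 in siCont and 752 and 818 in siTP63, with a log2 fold change of 0.34 (SE 0.14, adjusted p = 0.046), under the fold limit. KYSE150 values were 1081 and 846 against 1350 and 1424, with a log2 fold change of 0.54 (SE 0.21, adjusted p = 0.266). In none of the 3 lines did the groups overlap.

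SERPINB3 and SERPINB2 could be tested for TP63 knockdown in TE6 alone. SERPINB3 fell from 142 and 140 to 73.6 and 59.2, by 1.08 on the log2 scale (SE 0.19, adjusted p = 4.2e-04), and after siBRDT stood at 160 and 197, above the shared controls. SERPINB2 rose from 9.67 and 8.61 to 19.9 and 37.0 (1.48, SE 0.44, adjusted p = 0.014), a call that was lost without either siCont library (adjusted p = 0.059 and 0.090) and without siTP63 replicate 2 (0.168). Its exons share 547 bases with an unnamed protein-coding gene on the same strand. SERPINB8 was lower in TE6 (47.5 and 56.8 against 35.8 and 34) without being called (-0.56, SE 0.25, adjusted p = 0.082; 0.048 without siBRDT replicate 1 and 0.049 without the siBRDT group), and its values in KYSE180 were 33.0 and 37.0 against 34.5 and 19.9.

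In KYSE150 siTP63 limma called 0 of 5 members and 0 of 12335 genes; at an unadjusted p under 0.05 it passed 17.8% of all genes, among them the 3 members SERPINB1, SERPINB5 and SERPINB13. EdgeR also called 0 of the 5 members and 0 genes, and DESeq2 called 0 members and 3.74% of all genes. These counts depend on how the libraries pair: same-numbered siCont and siTP63 libraries deviated in opposite directions from their group means (r = -0.70), and with the numbers crossed in a replicate block, chosen after seeing the data, 5 of 5 members and 27.6% of all genes were called, in a fit that left 1 residual degree of freedom. Whether the numbers are crossed cannot be told from the labels. The median log2 fold change of the 5 was -0.81, against -0.01 over all genes. SERPINB13 was called when either siCont replicate 1 or siTP63 replicate 1 was left out (adjusted p = 0.028 and 0.043), in fits where the remaining library of that group was assumed to vary like the other group. SERPINB8 values were 146 and 146 in siCont and 189 and 248 in siTP63, both higher, and SERPINB7 values 65.3 and 114 against 69.0 and 33.3, which overlapped; neither was called without the crossed block (adjusted p = 0.305 and 0.408).

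Both knockdowns could be set against each other within a line. In TE6, where they share their controls, siTP63 minus siBRDT differed for 3 of 6 members (background 39.2%): SERPINB3 by -1.41 (SE 0.19, adjusted p = 1.0e-04), SERPINB13 by -0.80 (SE 0.16, adjusted p = 0.0017) and SERPINB1 by 0.54 (SE 0.13, adjusted p = 0.0065). The SERPINB1 call was lost without siTP63 replicate 1 (0.49, adjusted p = 0.079). SERPINB5 did not pass the test there (0.12, SE 0.12, adjusted p = 0.458), having fallen after both siRNAs. In KYSE180, with separate controls, SERPINB5 differed by 1.25 (SE 0.13, adjusted p = 3.3e-07) and SERPINB1 by 0.66 (SE 0.16, adjusted p = 0.0014), 2 of 4 members tested, where 63.8% of all genes differed.

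**Figure D3:**
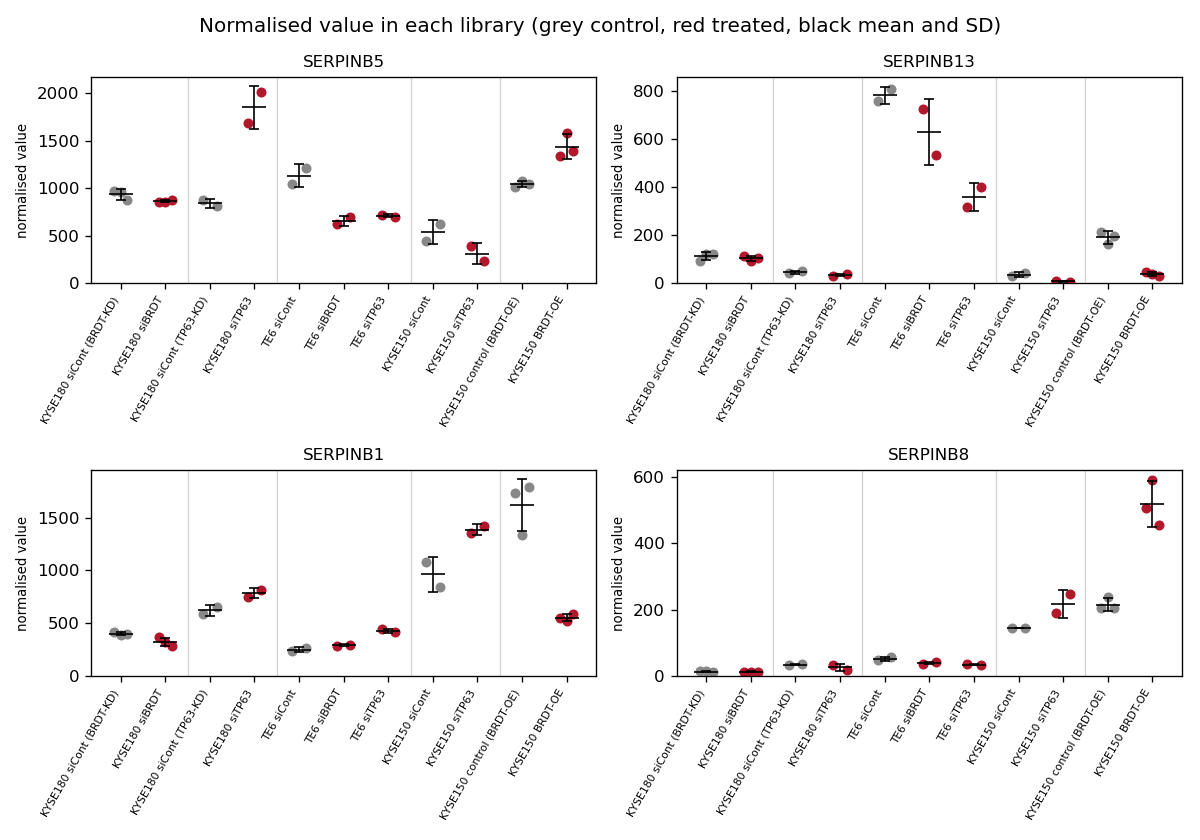
Normalised value (vertical axis, from 0) of SERPINB5, SERPINB13, SERPINB1 and SERPINB8 in each library of the 11 groups (horizontal axis), controls in grey and treated cells in red, with the mean and SD in black and lines between separately normalised tables. SERPINB5 rises to 1690 and 2008 in KYSE180 siTP63 and falls to 723 and 701 in TE6 siTP63, and SERPINB1 falls to between 523 and 586 in KYSE150 BRDT-OE.

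Forced BRDT expression in KYSE150 split the members. In BRDT-OE 5 of the 6 tested were called, 2 lower and 3 higher, where 26.5% of all 12765 genes were called (16% lower and 10.5% higher), and their median was 0.63 against 0.02 over all genes. BRDT itself was at 6.58 to 16.0 in the vector controls and 15871 to 17542 in BRDT-OE.

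SERPINB13 showed the largest fall, from 214, 161 and 198 in the controls to 46.4, 37.2 and 30.9 in BRDT-OE (-2.30, SE 0.18, adjusted p = 9.2e-06). SERPINB1 fell from 1730, 1334 and 1790 to 551, 523 and 586 (-1.53, SE 0.11, adjusted p = 5.7e-06). In both genes every treated library was below every control.

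SERPINB2 showed the largest rise, from 28.9, 45.3 and 32.9 to 149, 225 and 131 (2.19, SE 0.23, adjusted p = 4.1e-05). SERPINB8 rose from 204, 237 and 205 to 506, 590 and 456 (1.26, SE 0.12, adjusted p = 2.0e-05), and SERPINB7 from 165, 169 and 166 to 297, 283 and 297 (0.81, SE 0.09, adjusted p = 8.0e-05). SERPINB5 values were 1017, 1076 and 1041 against 1339, 1581 and 1392, all higher, with a log2 fold change of 0.46 (SE 0.08, adjusted p = 9.0e-04) that stayed under the fold limit (without which 6 members and 51.1% of all genes were called) and passed it without BRDT-OE replicate 1 (0.51, adjusted p = 0.0030). The calls of SERPINB13, SERPINB1, SERPINB2, SERPINB8 and SERPINB7 were kept in all 15 alternatives, SERPINB2 with log2 fold changes between 1.96 and 2.37. Of these alternatives, dropping the fold limit and summing SERPINB3 and SERPINB4 could not have lost these calls.

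Members below the filter on low values were called in no knockdown when fitted without it. SERPINB4 was listed at 0 in all 4 libraries of the KYSE180 siTP63 experiment and could not be fitted there. In KYSE180 SERPINB3 ranged from 6.80 to 10.6 in the siBRDT experiment, controls included, and from 3.83 to 15.4 in the siTP63 experiment, and SERPINB7 from 3.68 to 8.52 and from 0 to 3.18. SERPINB2 did not exceed 5.22 and SERPINB4 1.96 in that line. In TE6 SERPINB7 was at 1.76 and 6.03 in siCont, 6.47 and 7.17 in siBRDT and 12.6 and 7.40 in siTP63, with the siTP63 libraries highest (limma, adjusted p = 0.178 without the filter), and SERPINB4 lay between 2.65 and 5.39. In KYSE150 siTP63 and its controls SERPINB2 did not exceed 7.07, and neither SERPINB3 nor SERPINB4 exceeded 2.97.

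The squamous cell carcinoma antigens were near the limit of detection in KYSE150. SERPINB3 had 7, 7 and 5 reads in the vector controls and 1, 0 and 2 in BRDT-OE, and SERPINB4 had 19, 6 and 8 against 0, 0 and 1, both below the filter on low values. Fitted without that filter, both were called lower (adjusted p = 0.013 and 7.1e-04), on counts too small for a fold change.

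SERPINB3 and SERPINB4 divided their reads unequally. In TE6 siCont, SERPINB3 took 324 of the 333 reads of both genes, 97.3% (95% exact Clopper-Pearson interval 94.9 to 98.8%), and in TE6 siTP63 151 of 158, 95.6% (91.1 to 98.2%). In KYSE180 SERPINB3 had 25 reads and SERPINB4 2 in the siCont libraries of the siBRDT experiment. In the KYSE150 vector controls SERPINB3 had 19 and SERPINB4 33 reads, a SERPINB3 share of 36.5% (23.6 to 51.0%). The intervals cover counting error only and no test was made between lines. SERPINB3 also shares 620 exon bases with SERPINB11 on the opposite strand, and the library kit does not mark strand, so reads of these genes cannot be told apart there.

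**Figure D4:**
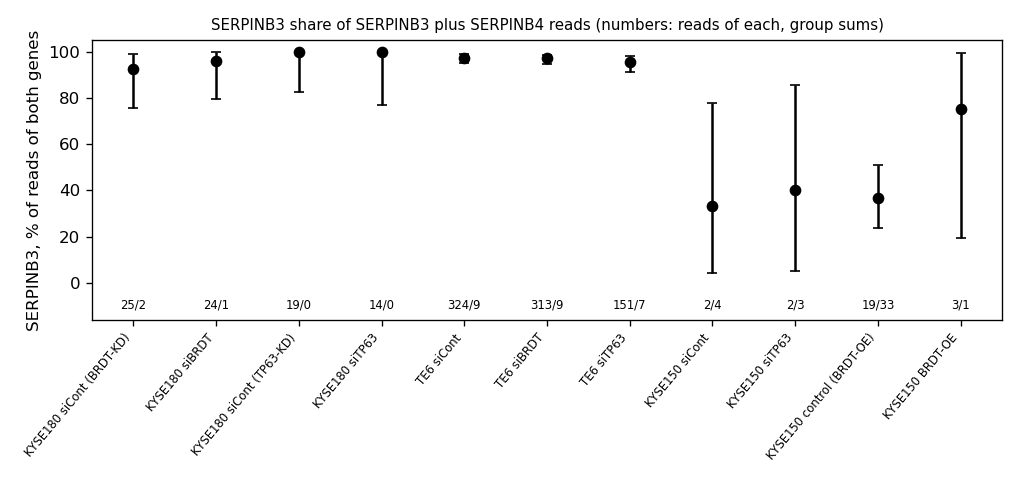
Share of SERPINB3 among the reads of SERPINB3 and SERPINB4 (percent), summed over the libraries of each group, with exact 95% intervals; the numbers give the reads of SERPINB3 and SERPINB4. All TE6 groups lie above 95%, whereas the KYSE150 vector controls lie at 36.5%; the other KYSE150 groups rest on 6 reads or fewer.

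Of the 5 other clade B serpins, SERPINB6, a widely expressed intracellular inhibitor, rose in TE6 from 14.9 and 22.4 in siCont to 61.5 and 34.6 in siBRDT (1.29, SE 0.31, adjusted p = 0.0047) and to 106 and 130 in siTP63 (2.61, SE 0.31, adjusted p = 2.5e-05). In KYSE180 siBRDT it fell by 0.50 (SE 0.09, adjusted p = 3.4e-04). It was not called in KYSE180 siTP63 (-0.41), KYSE150 siTP63 (-0.11) or BRDT-OE (-0.41). SERPINB9, the granzyme B inhibitor, passed the filter in KYSE180 alone and was not called, and SERPINB10, SERPINB11 and SERPINB12 did not pass it in any comparison.

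Neighbouring genes were called in some comparisons, both where the nearest member was called and where it was not. VPS4B, an ATPase of the ESCRT pathway next to SERPINB5, rose by 1.13 in KYSE180 siTP63 (adjusted p = 1.4e-06), as SERPINB5 did, while in TE6 siTP63 its log2 fold change was -0.07 (adjusted p = 0.71). Beyond it, KDSR was called lower in KYSE180 siBRDT (-0.79) and the apoptosis inhibitor BCL2 lower in KYSE180 siTP63 (-0.88). HMSD, which shares 370 exon bases with SERPINB8 on the same strand, rose in TE6 by 1.02 after siBRDT and 0.98 after siTP63, where SERPINB8 values were lower. DSEL, far beyond SERPINB8 at 67506587 to 67516720, rose by 1.02 in BRDT-OE, where SERPINB8 was also called higher. CDH7 and CDH19 were not tested in any comparison.

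Proteases linked to clade B serpins were measured as a list of 12 genes, which also held the urokinase receptor PLAUR. In KYSE180 siBRDT 3 of 8 tested fell (15.8% of all genes), with PLAU, the urokinase that SERPINB2 inhibits, at -1.91 (SE 0.13, adjusted p = 2.0e-08) and the cathepsin CTSV at -1.27. In TE6 siBRDT 3 of 8 fell (18.1%), led by the tissue plasminogen activator PLAT (-1.81) and PLAU (-0.91), and the urokinase receptor PLAUR alone rose, by 0.92 (15.6% of all genes rose). In KYSE180 siTP63 4 of 8 rose (23.6%), led by cathepsin S (CTSS, 3.53, SE 0.42, adjusted p = 9.8e-08) and CTSK (1.55), and PLAT fell by 1.19. PLAU, which fell after siBRDT, was also among those that rose in KYSE180 siTP63 (1.54, SE 0.20, limma adjusted p = 3.2e-07). It was not called in TE6 siTP63 (-0.24). In TE6 siTP63 2 of 8 rose (18.3%), CTSK (1.08) and CTSS (0.99), and the log2 fold change of PLAT was -3.0. In KYSE150 limma called 0 of 6 in either experiment, with 3 at an unadjusted p under 0.05 in each (17.8% of all genes after siTP63 and 57.4% in BRDT-OE); edgeR also called 0, and DESeq2 called 1 after siTP63 and 0 in BRDT-OE.

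Of 17 serpins of other clades, SERPINA1 (alpha-1-antitrypsin) rose after siTP63 in KYSE180 (3.22, SE 0.34, adjusted p = 1.9e-08) and TE6 (1.99, SE 0.28, adjusted p = 8.9e-05), where 1 of 7 and 2 of 8 tested rose, against 23.6% and 18.3% of all genes. SERPINE2, an extracellular inhibitor of plasminogen activators and thrombin, fell, with log2 fold changes of -1.58 in KYSE180 (SE 0.17, adjusted p = 2.2e-08) and -2.33 in TE6 (SE 0.15, adjusted p = 2.0e-07), among 4 of 7 and 3 of 8 that fell, against 25.7% and 20.6% of all genes. After siBRDT SERPINH1, the collagen chaperone HSP47, fell by 1.32 in KYSE180 and 0.71 in TE6, among 3 of 6 and 1 of 8 that fell, against 15.8% and 18.1%. SERPINE2 was the 1 of 6 that rose in KYSE180 siBRDT (0.83, SE 0.07, limma adjusted p = 1.1e-07), against 14.5% of all genes. In TE6 siBRDT it was not called (-0.20). In BRDT-OE SERPINF2 fell by 0.96.

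For the 4 members tested in all 6 comparisons, the genes with the most similar log2 fold changes were ranked by the root mean square difference over those 6 values, among genes with a mean normalised value of at least 100. Nearest to SERPINB5 were CAPN7 (0.14), ALCAM (0.22) and ITGB8 (0.23), and nearest to SERPINB1 were BTN3A2 (0.17), ING4 (0.20) and RRAS (0.20). SERPINB8 was followed by PIGW (0.30), SYNJ2 (0.31) and NETO2 (0.34). SERPINB13 had no equally close gene, with SNAPC1 at 0.66, KRT15, a basal keratin, at 0.71 and ARHGEF19 at 0.73. Its own values lay under the minimum of 100 in the siTP63 experiments of KYSE180 (at most 50.3) and KYSE150 (at most 42.4). The SE of its log2 fold change in KYSE150 siTP63 was 0.47. The part of these low values in its larger distances was not tested. The values of the TE6 comparisons share controls, and no test was attached to this ranking.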

How the data were processed

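Libraries were made with a TruSeq RNA kit V2, which does not mark strand. According to the submitters' processing notes, reads were aligned with STAR 2.6.0 to hg38, counted with HTSeq 0.11.2 and normalised with DESeq2 1.24.0; the annotation and strand setting are not given in the sources used here. The deposited values are a signal, gene counts that the authors divided by DESeq2 size factors, in 5 tables normalised separately. Every value was a whole multiple of the value of 1 read in its library (100% at a tolerance of 0.01), which gave the reads and depth of each library (7582089 to 19372441).

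Values were compared within each table with limma 3.58.1 (R 4.3.3; lmFit and eBayes with trend) on log2(value + 1) for genes with a mean of at least 10; the 3 TE6 groups shared a fit. Calls needed adjusted p below 0.05 with 0.5 or more on the log2 scale. The 6 differences between effects were contrasts in a joint fit, called at adjusted p below 0.05. Alternatives were a pseudocount of 0.1, no filter, upper quartile and total-count rescaling, a replicate block, edgeR 4.0.16 and DESeq2 1.42.0 on recovered reads, no fold limit, SERPINB3 and SERPINB4 summed, TE6 fitted as 2 groups, and leaving out each library. Scripts were tested on simulated counts. Named genes were all members, BRDT and TP63, the other clade B serpins, the neighbours in the 18q21 cluster, up to 2 called genes with the largest rise and 2 with the largest fall from the protease and serpin lists in each comparison, and the 3 nearest genes of each member tested throughout. PLAU after siTP63 and SERPINE2 in TE6 siBRDT were given besides. The members and lists were chosen with earlier results of these data known. Sequences came from the hg38 genome and RefSeq, whose promoter table matched 8 of 8 members. All columns of the tables were mapped to samples. Values of 1 listed gene are not reported here.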

Additional observations from a re-analysis of the deposited data

Results flagged for a closer look

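Differences between the effects of a perturbation in 2 lines, or of 2 perturbations in a line, passed the limma test of the difference itself for 10 values, each already given with its error above. After siBRDT, KYSE180 minus TE6 was -0.55 for SERPINB1 and 0.67 for SERPINB5. After siTP63, KYSE180 minus TE6 was 1.80 for SERPINB5 and 0.70 for SERPINB13, and KYSE180 minus KYSE150 was 1.94 for SERPINB5. The effect of siTP63 minus that of siBRDT was 1.25 for SERPINB5 and 0.66 for SERPINB1 in KYSE180, and -1.41 for SERPINB3, -0.80 for SERPINB13 and 0.54 for SERPINB1 in TE6. Groups held 2 or 3 libraries, too few for a test of single libraries that stand apart.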

How the results depend on the processing

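Of 464 alternative values for the 31 fold changes of members, 444 kept their direction and their side of the threshold, and of 481 for the 33 differences 438 did. Some of the 464 could hardly have differed. Summing SERPINB3 and SERPINB4 left the fold changes of the other members as they were. Dropping the fold limit reused the main fit and could add a call but not lose one. In KYSE150 siTP63 some alternatives, such as edgeR, called 0 of 12335 genes, so there only the direction could change. Without the fold limit the members called went from 0 to 1 in KYSE180 siBRDT (58.4% of all genes), from 1 to 2 in KYSE180 siTP63 (58.9%) and from 5 to 6 in BRDT-OE (51.1%). Total-count rescaling, chosen after seeing the data, moved the median of all genes in KYSE180 siTP63 from 0.00 to 0.53; there 2 members were called, SERPINB1 among them (0.86), and SERPINB8 (0.11) and SERPINB13 (0.082) changed sign. It split the calls of all genes in KYSE180 siTP63 into 1452 lower and 6789 higher, against 3577 and 3292. Under it, SERPINB1 also changed sign in siTP63 KYSE180 minus TE6 (0.10) and KYSE180 minus KYSE150 (0.22), and SERPINB8 (0.11) and SERPINB13 (0.10) in KYSE180 siTP63 minus siBRDT; the members differing went from 2 to 1 for siBRDT KYSE180 minus TE6 and from 1 to 0 for siTP63 KYSE180 minus KYSE150. With no filter, and with a pseudocount of 0.1, siTP63 KYSE180 minus TE6 went from 2 to 1 and KYSE180 minus KYSE150 from 1 to 0. Upper quartile rescaling also took siTP63 KYSE180 minus TE6 to 1. For KYSE180 minus KYSE150, 36 of 21328 genes differed with no filter and 239 of 13689 with the pseudocount. For KYSE180 minus TE6 they were 6355 of 22953, 6933 of 13896 and, with upper quartile rescaling, 7080 of 13901. The causes were not tested.

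Leaving out each library gave 1 to 2 members called in TE6 siBRDT, 4 to 6 in TE6 siTP63, 0 to 1 in KYSE150 siTP63, 5 to 6 in BRDT-OE, 2 to 4 differing for TE6 siTP63 minus siBRDT, 1 to 2 differing for siBRDT KYSE180 minus TE6, 1 to 3 for siTP63 KYSE180 minus TE6, and 0 to 2 for siTP63 KYSE180 minus KYSE150. Where this left a group with 1 library, that library was assumed to vary like the other groups. The number of all genes called also changed between these fits, so a changed count is not read as particular to the members. It turned the sign of some uncalled differences: after siTP63, SERPINB3 ranged from -0.30 to 0.87 and SERPINB8 from -0.22 to 0.54 in KYSE180 minus TE6, and SERPINB2 from -0.32 to 2.70, SERPINB3 from -1.79 to 0.20 and SERPINB5 from -0.22 to 0.51 in TE6 minus KYSE150; SERPINB8 ranged from -0.70 to 0.069 in KYSE180 siTP63 minus siBRDT.

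Libraries with the same replicate number did not deviate together (correlations of deviations at most 0.18), so the numbers were not taken as pairing; in KYSE150 siTP63 the correlation was -0.70, and its numbers may be crossed. With the replicate block, members called were 0 in KYSE180 siBRDT, 1 in TE6 siBRDT, 1 in KYSE180 siTP63, 5 in TE6 siTP63, 0 in KYSE150 siTP63 and 5 in BRDT-OE. In the same order, all genes called were 4175 of 13589, 4442 of 13333, 6799 of 13924, 5177 of 13333, 137 of 12335 and 3433 of 12765. The block took siTP63 KYSE180 minus KYSE150 from 1 to 0 members, where 0 of 13689 genes differed. With the 2 numbers of KYSE150 siTP63 crossed in the block, an alternative chosen after seeing the data, limma called 5 members and 3400 genes. With them crossed, 2 members differed for siTP63 KYSE180 minus KYSE150 and 3 for TE6 minus KYSE150. Without any block, DESeq2 called 461 genes in KYSE150 siTP63 and limma 0. No change of SERPINB4 outside KYSE150 BRDT-OE, or of SERPINB7 outside KYSE150, was detectable at this depth.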
